A study of Mus musculus with 12 samples.

Results

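The PAR bZIP clock output factors Dbp, Tef and Hlf and their antagonist Nfil3 were followed in mouse brain as 4 of the 38924 genes measured. The members were taken by name, as the rows whose Ensembl identifiers carry these symbols, and no value entered that rule. The members and the gene lists were, however, chosen with earlier results of these data known. Polyadenylated RNA was sequenced from whole brains of mice aged 6 weeks, with 1 library from each of 3 mice in 4 genotypes. Wild type mice (WT) and Rorbh1/h1 mice (h1) were on the C57BL/6J background. Rorbh2/h2 mice (h2) were on B6(Cg)-Tyrc-2J/J and Rorbh4/h4 mice (h4) on B6.129S7-Il1r1tm1Imx/J, so that for h2 and h4 the Rorb allele and the background cannot be told apart. All mutants were homozygous for an allele of the high stepper series, which is named for gait. Rorb encodes a nuclear receptor that binds the same DNA element as the REV-ERB repressors of the clock, and the comparisons address what its alleles change in the brain. The time of day at harvest is not given in the sources used here.

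DBP, TEF and HLF are transcription factors of the proline and acidic amino acid-rich (PAR) basic leucine zipper family. They bind a DNA element called the D-box and activate genes from it, and NFIL3, also called E4BP4, binds the same element and represses. In many tissues the PAR factors cycle over the day because CLOCK and BMAL1 (gene Arntl) drive them through E-box elements. Nfil3 is held down by the REV-ERB receptors and activated by the ROR receptors through the ROR element, so that it tends to peak opposite to Dbp. In brain, mice that lack all 3 PAR factors are known for epileptic seizures and reduced Pdxk, the kinase that makes the active form of vitamin B6.

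The 4 genes lie on separate chromosomes (GENCODE M21, GRCm38). Dbp (ENSMUSG00000059824) occupies chr7:45705088-45710203 on the plus strand, and Tef (ENSMUSG00000022389) chr15:81802421-81826863 on the plus strand. Hlf (ENSMUSG00000003949) occupies chr11:90336536-90390895 on the minus strand, and Nfil3 (ENSMUSG00000056749) chr13:52967209-52981073 on the minus strand. All 4 had RefSeq promoter windows (GRCm38.p6), which run from 250 bases before to 50 bases after a transcript start, and Tef had a pair of them. The windows were searched on both strands for the E-box CACGTG, the D-box TTATGNAA, the ROR element TAGGTCA and the cAMP response element TGACGTCA. None of these motifs overlaps another in the sites shown. Among 32851 windows of all genes, 7.15% held the E-box, 3.38% the D-box, 2.61% the ROR element and 1.79% the cAMP response element. The E-box and the ROR element are elements through which the clock is known to act on such genes. All sites found in the windows of the members are shown, with the motif in capitals, 5′ to 3′ on the strand of the gene.
Tef, first window, E-box, chr15:81802534-81802563: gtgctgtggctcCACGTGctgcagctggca
Tef, second window, E-box, chr15:81811264-81811293: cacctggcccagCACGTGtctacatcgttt
Nfil3, ROR element read from the other strand, chr13:52981033-52981062: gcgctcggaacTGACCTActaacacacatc
Hlf, cAMP response element, chr11:90390908-90390937: ggtgcgggcccTGACGTCActcttgtcagg

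The E-boxes of Tef begin 127 and 138 bases before their starts, the ROR element of Nfil3 12 bases before its start and the cAMP response element of Hlf 9 bases before its start. The window of Dbp held none of the 4 motifs. The 250 bases before the start of Dbp are printed because Dbp is the member with the largest difference between genotypes below.
Dbp, chr7:45704997-45705246, plus strand: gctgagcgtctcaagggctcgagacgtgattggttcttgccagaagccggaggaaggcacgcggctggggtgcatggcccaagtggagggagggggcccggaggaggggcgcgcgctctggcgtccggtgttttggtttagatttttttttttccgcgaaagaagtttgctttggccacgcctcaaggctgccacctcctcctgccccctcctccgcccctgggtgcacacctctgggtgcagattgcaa

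A match is a description of the letters, and no match says only that these letters are not in that window. This stretch of Dbp has a GC content of 60.3% and 18 CG dinucleotides.

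All 4 genes were expressed in every brain. On the TPM scale, which corrects for transcript length and library size, the order of the levels was Tef, Dbp, Hlf and Nfil3. Over the 12 libraries the TPM level averaged 189 ± 13.8 for Tef, 76.7 ± 9.75 for Dbp, 68.0 ± 9.03 for Hlf and 10.1 ± 1.30 for Nfil3 (SD, n = 12). Tef was above Dbp and Hlf, and both were above Nfil3, in 12 of 12 libraries. Dbp was above Hlf in 11 of 12 libraries, but the 12 values of the pair overlapped, from 64.5 to 91.1 TPM for Dbp and from 54.7 to 83.5 TPM for Hlf. The ratio of Dbp to Hlf in TPM averaged 1.01 ± 0.0369 in the WT brains, 1.21 ± 0.102 in those of h1, 1.04 ± 0.0248 in those of h2 and 1.29 ± 0.163 in those of h4 (SD, n = 3 each). RNA of the 3 activators summed to 342 ± 20.9 TPM in the WT brains, 366 ± 28 in those of h1, 307 ± 5.18 in those of h2 and 321 ± 19.4 in those of h4 (SD, n = 3). In these whole-brain samples, fewer cells that express a gene and less RNA per cell cannot be told apart.

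Each library held 14513825 to 24694178 expected counts. Between 129 and 272 of them fell on Nfil3, for which counting error alone is 8.8% to 6.06%, and between 4637 and 8437 on Tef, for which it is 1.47% to 1.09%. Dbp and Hlf lay between, so a given difference is least certain for Nfil3. The 9 genes listed for brain identity, among them Snap25, Gad1, Aqp4 and Mbp, were detected in every library. Rorb, the mutated gene, stood at 18.4, 16.3 and 17.1 CPM (counts scaled to the library total) in the WT brains, 23.2, 33.1 and 22.6 in those of h1, 31.1, 31.0 and 22.6 in those of h2, and 9.11, 8.65 and 8.66 in those of h4. Its lower level in h4 passed the test against WT, at -0.98 ± 0.20 on the log2 scale (SE, adjusted p = 0.0309), and its higher estimates in h1 (0.62, adjusted p = 0.242) and h2 (0.70, adjusted p = 0.147) did not. The call in h4 was lost in 6 of 12 fits that left out 1 library and with Xist as a covariate. Xist, expressed from the inactive X chromosome of females, was at 783 to 915 CPM in 7 libraries (3 of 3 WT, 1 of 3 h1, 1 of 3 h2 and 2 of 3 h4) and at 0.557 to 1.34 CPM in the other 5, so the genotypes were not balanced for sex.

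**Figure D1:**
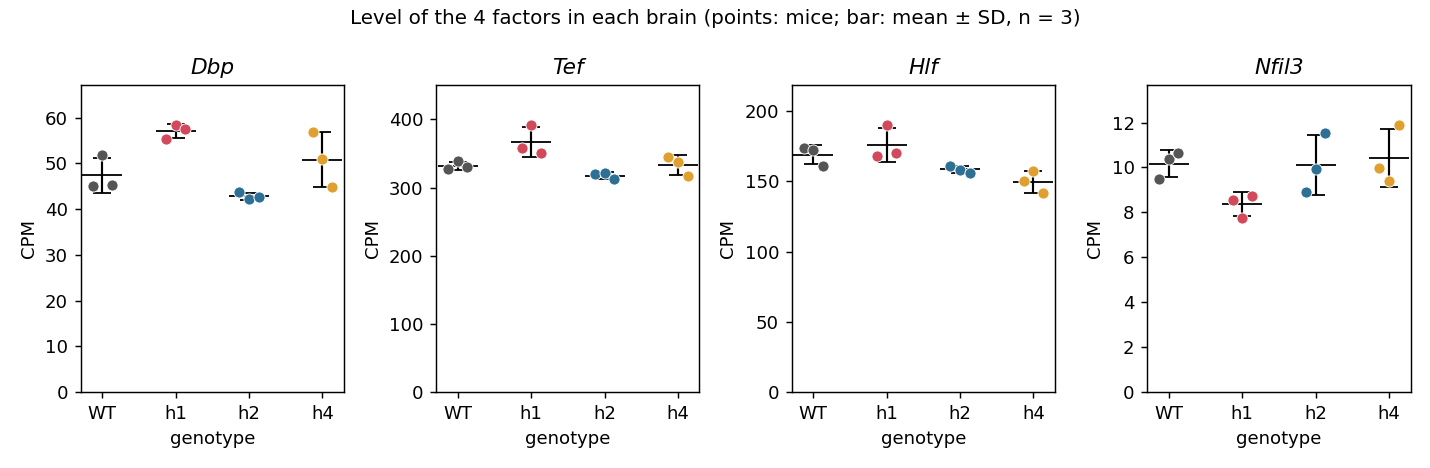
Level of Dbp, Tef, Hlf and Nfil3 in CPM (vertical axes from 0) in each of the 12 brains, by genotype. Points are mice and the bars give the mean ± SD of 3 mice. All 3 h1 points of Dbp lie above all 3 h2 points, and the h1 points of Nfil3 lie below those of every other genotype.

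Dbp, the PAR factor most closely tied to E-box control, was highest in h1 brains and lowest in h2 brains. Its level was 45.0, 51.8 and 45.3 CPM in the WT brains, 55.3, 58.4 and 57.6 in those of h1, 43.7, 42.2 and 42.6 in those of h2, and 56.9, 50.9 and 44.7 in those of h4. The h1 libraries were above every WT and every h2 library, the h2 libraries were below every other library, and the h4 libraries overlapped WT and h1. Between h2 and h1 the log2 fold change was -0.43 ± 0.069 (SE, 95% interval -0.59 to -0.27, n = 3 and 3), so that Dbp fell by 25.6%, with an adjusted p of 0.00401 by the quasi-likelihood test of edgeR. Dbp ranked 22nd of 16493 genes by p in this comparison.

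Against WT no call was made for Dbp. The estimate for h1 was 0.28 ± 0.068 (log2, SE, 95% interval 0.12 to 0.44, adjusted p = 0.0719 by edgeR), or 21.4% above WT, with 3 of 3 libraries above all WT libraries. For h2 it was -0.15 ± 0.070 (adjusted p = 0.431), with 3 of 3 libraries below all of WT. For h4 it was 0.09 (adjusted p = 0.539) with overlapping libraries. The estimates for h1 and h2 thus lay on opposite sides of WT, but neither was called, and the 95% interval for h2 (-0.31 to 0.014) includes 0. The h2 against h1 comparison above tests their difference and not the side of WT on which each lies. The h1 estimate passed the threshold when DESeq2 was used (adjusted p = 0.0233), with no low-count filter (0.00188) and when only the h1 and WT libraries were fitted (0.00927). It did not pass with Xist as a covariate (0.25, adjusted p = 0.392), on log2(TPM + 0.1) with limma (0.21, adjusted p = 0.576), or in 9 of 12 fits that left out 1 library, and all 3 WT brains but only 1 of 3 h1 brains had high Xist.

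Tef followed Dbp in a smaller range. Its level was 327.6, 338.5 and 329.8 CPM in the WT brains, 357.5, 391.6 and 351.2 in those of h1, 319.5, 320.7 and 312.2 in those of h2, and 344.2, 338.1 and 316.2 in those of h4. All h1 libraries were above all others, and all h2 libraries were below those of WT and h1. Tef fell by 14.1% in h2 against h1, or -0.22 ± 0.043 in log2 units (SE, adjusted p = 0.0083 by edgeR, rank 41 by p). It was also lower in h4 than in h1, by -0.16 ± 0.043 (SE, adjusted p = 0.0293). Against WT the estimates were 0.15 ± 0.042 for h1 (adjusted p = 0.104), -0.06 for h2 (adjusted p = 0.604) and -0.0045 for h4 (adjusted p = 0.976), and none passed. Both called differences of Tef rest in part on h1 replicate 2, the highest library of all 12. Without it they were -0.17 (adjusted p = 0.102) against h2 and -0.11 (adjusted p = 0.187) against h4, and the second was also lost without h4 replicate 3 (-0.12, adjusted p = 0.173).

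Hlf, the third activator, had its lowest mean level in h4 and not in h2. Its level was 173.6, 172.3 and 161.2 CPM in the WT brains, 167.8, 190.2 and 170.3 in those of h1, 161.2, 158.3 and 156.3 in those of h2, and 150.2, 157.2 and 141.7 in those of h4. Every h4 library was below every WT and h1 library, while h4 and h2 overlapped. Hlf fell by 12% in h4 against WT, or -0.18 ± 0.048 in log2 units (SE, adjusted p = 0.0315 by edgeR), and by 16.1% in h4 against h1, with -0.25 ± 0.048 (SE, adjusted p = 0.00436). The estimate for h2 against h1 was -0.16 ± 0.047 (adjusted p = 0.139), that for h2 against WT -0.09 (adjusted p = 0.462) and that for h1 against WT 0.07 (adjusted p = 0.681).

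The difference of Hlf between h4 and WT passed in 8 of 12 fits that each left out 1 library. It was lost without WT replicate 1 (-0.16, adjusted p = 0.155), WT replicate 2 (-0.17, 0.132), h4 replicate 1 (-0.19, 0.0851) or h4 replicate 3 (-0.15, 0.131). The difference between h4 and h1 passed in 12 of 12, with log2 fold changes of -0.29 to -0.19. All 3 WT brains had high Xist, and the h4 brain with low Xist had the highest Hlf of its group (157.2 CPM). With Xist as a covariate the h4 against WT estimate was -0.21 (adjusted p = 0.00995).

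The estimated transcript length of Hlf was longest on average in h4, but no length test passed. RSEM averages it over the estimated mix of transcripts, and it was 4261 ± 281.6 bases in the WT brains, 4528 ± 307.4 in those of h1, 4623 ± 63.1 in those of h2 and 4695 ± 139.3 in those of h4 (SD, n = 3). For h2 and for h4 all 3 values were above all 3 of WT, with a 2-sided exact permutation p of 0.1, the smallest that 3 against 3 libraries allow (adjusted p = 0.6 over 12 length tests). Lengths of the other 3 members gave exact p of 0.3 or more. Because TPM divides by this length, Hlf in TPM fell further than its counts, from 75.6 ± 8.35 in WT to 59.0 ± 4.52 in h4 (SD, n = 3). On log2(TPM + 0.1) with limma the h4 against WT difference was -0.35 (adjusted p = 0.0975). A shift in the transcripts used and a shift in how reads were assigned to them cannot be told apart from these values.

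Nfil3, the repressor, had its lowest values in h1, where Dbp and Tef had their highest. Its level was 9.48, 10.4 and 10.7 CPM in the WT brains, 8.57, 7.75 and 8.75 in those of h1, 8.89, 9.92 and 11.54 in those of h2, and 9.99, 9.41 and 11.9 in those of h4. The 3 h1 libraries were the 3 lowest of the 12, and the other genotypes overlapped each other. No test passed for Nfil3. The estimates by edgeR were -0.27 ± 0.11 (SE, 95% interval -0.51 to -0.03, adjusted p = 0.337) for h1 against WT, 0.28 ± 0.11 for h2 against h1 (adjusted p = 0.314) and 0.30 ± 0.11 for h4 against h1 (adjusted p = 0.107). For h2 against WT the log2 fold change was 0.0045 with a 95% interval of -0.23 to 0.24, so a true difference anywhere in that range remains possible.

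Of the 24 tests of the 4 members in the 6 pairwise comparisons, 5 passed an adjusted p of 0.05, 1 of 12 against WT and 4 of 12 between mutants. Against WT the members called were 0 of 4 in h1, where 0.625% of all genes were called, 0 of 4 in h2 (0.679% of all genes) and 1 of 4 in h4 (4.55%). Between mutants, 2 of 4 were called in h2 against h1, where 0.722% of all genes were, 2 of 4 in h4 against h1 (4.64%) and 0 of 4 in h4 against h2 (3.22%). By ranges alone, libraries did not overlap for 3 of 4 members in h1 against WT, where 14.9% of all genes did not overlap, for 3 in h2 against WT (15.2%) and for 1 in h4 against WT (21.3%). The same held for 4 of 4 members in h2 against h1 (15.5% of all genes), for 3 in h4 against h1 (24.2%) and for 1 in h4 against h2 (21.7%). The comparisons against WT share the WT libraries, and those against h1 share the h1 libraries, so the calls are not independent of each other. Because the members were chosen with earlier results of these data known, the shares of all genes give a scale and not a test. For the mean of the 3 mutants against WT, where 1.1% of genes were called, no member passed, with log2 estimates of 0.07 for Dbp, 0.03 for Tef, -0.07 for Hlf and -0.08 for Nfil3 (adjusted p = 0.655, 0.824, 0.488 and 0.78).

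**Figure D2:**
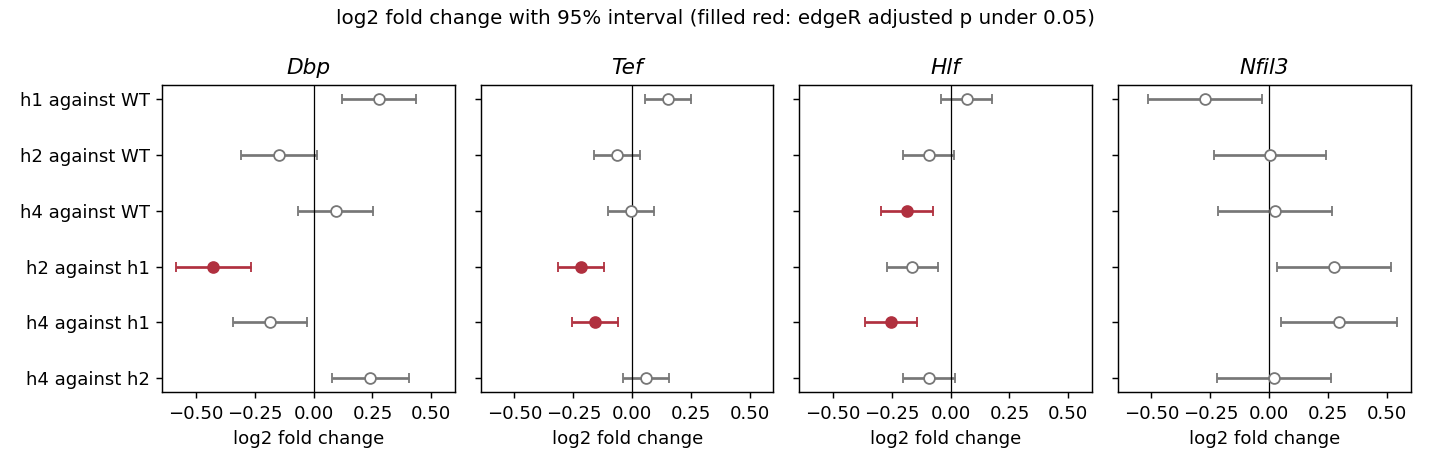
log2 fold change of each member (horizontal axis) in the 6 pairwise comparisons (rows), with the 95% interval as a bar. Filled red points passed an edgeR adjusted p of 0.05: Dbp and Tef in h2 against h1, Tef and Hlf in h4 against h1, and Hlf in h4 against WT.

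Across the 12 brains Dbp and Tef moved together, and Nfil3 correlated negatively with each of the 3 activators. Of the 6 pairs of members, Dbp and Tef had the highest correlation of log2(CPM + 0.5), with Pearson's r = 0.881 (2-sided permutation p = 1e-05, the smallest that 100000 resamples can give, adjusted p = 6e-05) and Spearman's rho = 0.93 (permutation p = 7e-05, adjusted p = 0.00042). It was 0.919 without the 2 libraries farthest from the median. Within genotypes, after removing each genotype's mean, r was 0.658 (exact p = 0.0231 over 1296 orders, adjusted p = 0.0694).

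The correlations with Nfil3 were negative. For Tef and Nfil3, r was -0.781 (permutation p = 0.00213, adjusted p = 0.00639) and rho -0.692 (p = 0.0156, adjusted p = 0.0467), and within genotypes r was -0.633 (exact p = 0.0363, adjusted p = 0.0725). For Hlf and Nfil3, r was -0.744 (permutation p = 0.00587, adjusted p = 0.0117) and rho -0.601 (p = 0.0422, adjusted p = 0.0845), and within genotypes r was -0.741 (exact p = 0.00154, adjusted p = 0.00926), the one pair to pass within genotypes after adjustment. For Dbp and Nfil3, r was -0.609 (permutation p = 0.0372, adjusted p = 0.0446) and rho -0.545 (p = 0.0716, adjusted p = 0.0859), with -0.396 within genotypes (exact p = 0.363, adjusted p = 0.363). These relations rest in part on the most distant libraries, since without the 2 farthest r was -0.552 for Tef, -0.37 for Hlf and -0.381 for Dbp.

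Hlf was tied to Tef more than to Dbp. For Tef and Hlf, r was 0.704 (permutation p = 0.0129, adjusted p = 0.0194) and rho 0.566 (p = 0.0577, adjusted p = 0.0859), with 0.814 within genotypes (exact p = 0.061, adjusted p = 0.0914) and 0.388 without the 2 farthest libraries. For Dbp and Hlf, r was 0.443 (permutation p = 0.148, adjusted p = 0.148) and rho 0.462 (p = 0.132, adjusted p = 0.132), with 0.466 within genotypes (exact p = 0.2, adjusted p = 0.24) and 0.111 without the 2 farthest libraries. The difference between these correlations was not tested. The ratio of Dbp to Nfil3 in TPM shows the opposed levels in single brains. It was 7.78, 7.40 and 6.35 in the WT brains, 9.24, 11.4 and 10.2 in those of h1, 7.49, 6.41 and 5.61 in those of h2, and 8.53, 8.07 and 5.29 in those of h4, so that each h1 brain was above the other 9.

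**Figure D3:**
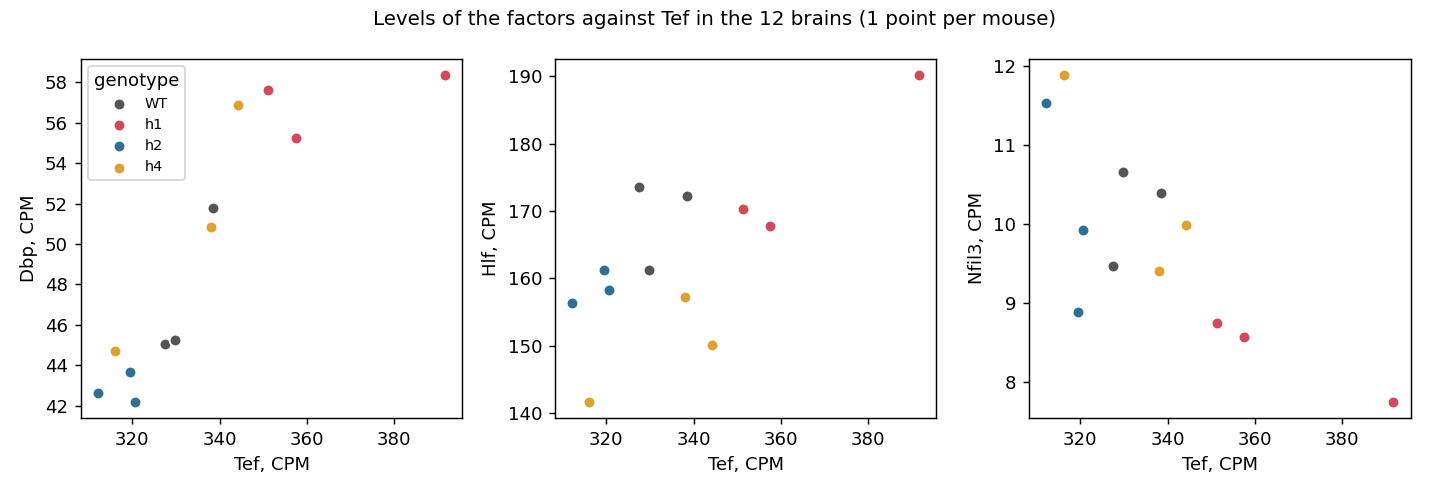
Levels of Dbp, Hlf and Nfil3 (vertical axes, CPM) against Tef (horizontal axes, CPM) in the 12 brains, 1 point per mouse, coloured by genotype. Dbp rises with Tef (r = 0.881 on the log2 scale), Hlf does so less closely (r = 0.704), and Nfil3 falls (r = -0.781), with the h1 brains at the high end of Tef. The axes do not start at 0.

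The core clock loop, the feedback circuit that drives these factors, was described with a list of 20 genes. Between h2 and h1, the comparison in which Dbp and Tef were called, 3 of the 20 were lower in h2, 0 were higher and 17 did not pass, with a median log2 fold change of -0.03 beside 0.002 for all genes tested. Of all genes tested, 0.722% were called in this comparison. Ciart, a repressor of CLOCK and BMAL1, fell by 32.8% (log2 difference -0.57 ± 0.11, SE, adjusted p = 0.007 by edgeR). Nr1d2, which encodes REV-ERB beta, fell by 19.9% (-0.32 ± 0.057, SE, adjusted p = 0.0174). Per3, a period gene, fell by 16.7% (-0.26 ± 0.058, SE, adjusted p = 0.0252). Each of these calls was lost when some single library was left out: h1 replicate 2 for Ciart, h2 replicate 1 for Nr1d2, and h1 replicate 2, h2 replicate 2 or h2 replicate 3 for Per3.

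In single brains, Nr1d2 was at 164.3, 163.4 and 162.1 CPM in the WT brains, 170.4, 196.3 and 177.5 in those of h1, 146.2, 150.4 and 142.7 in those of h2, and 194.0, 186.9 and 167.3 in those of h4. As for Dbp, the h1 libraries were above WT and the h2 libraries below it. Nr1d2 also rose in h4 against h2 (0.31 ± 0.057, SE, adjusted p = 0.00868). Per3 was at 40.7, 46.4 and 43.4 CPM in the WT brains, 46.5, 54.0 and 48.4 in those of h1, 43.5, 41.3 and 40.5 in those of h2, and 47.6, 47.2 and 45.0 in those of h4.

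Arntl, which encodes BMAL1 and is repressed by the REV-ERB receptors, ran the other way. It was at 35.4, 31.3 and 33.5 CPM in the WT brains, 33.1, 28.3 and 28.8 in those of h1, 37.3, 37.5 and 37.1 in those of h2, and 26.7, 30.6 and 34.8 in those of h4. The h2 libraries were above every h1 library, with an estimate of 0.30 ± 0.075 that did not pass (log2, SE, adjusted p = 0.0579). Arntl was lower in h4 than in h2 (-0.29 ± 0.076, SE, adjusted p = 0.0361), a call lost without any 1 of the 3 h2 libraries, h4 replicate 1 or h4 replicate 2. Per2, a period gene with an estimate of -0.71 ± 0.15 for h2 against h1, did not pass (adjusted p = 0.0975), although each of its h2 libraries (18.8, 23.7 and 23.3 CPM) was below each h1 library (37.8, 35.4 and 34.6 CPM).

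Clock genes and known outputs under direct E-box control were described with a list of 10, which shares Per1, Per2, Per3, Nr1d1, Nr1d2, Ciart and Bhlhe41 with the core loop. It also shares Per1 and Tsc22d3 with the list of genes that respond to glucocorticoid, described below. Of its 8 genes with a RefSeq window, 3 held the letters CACGTG there, namely Bhlhe41, Ciart and Per1 (8.09% of all genes with a window). The list thus follows prior knowledge of these genes and not this search. In h2 against h1 the estimates of all 10 were below 0, where 49.0% of all genes were, and 3 passed (0.722% of all genes), namely Ciart, Nr1d2 and Per3. The median of the 10 was -0.29. In h1 against WT 10 of 10 estimates were above 0 with a median of 0.13, and in h2 against WT 9 of 10 were below 0 with a median of -0.17, and none of them passed in either. These comparisons share control libraries, and the members of the list are not independent of each other. The list was also chosen with earlier results of these data known, so the share of all genes is no test of it. The list's summed level was 379 to 434 TPM in the WT brains, 427 to 488 in those of h1, 310 to 356 in those of h2 and 371 to 427 in those of h4, so that every h2 brain was below every brain of the other genotypes. A large part of this sum came from Tsc22d3, which also responds to glucocorticoid. Its mean was 155.7 TPM for the h1 mice, beside 120.9 TPM for WT. The h2 mice averaged 92.81 TPM of it and the h4 mice 107.8 TPM. Whether the order of the brains holds without Tsc22d3 was not tested.

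In the comparisons of h4, further loop genes were called beside Nr1d2 and Arntl. Btrc, which encodes a subunit of a ubiquitin ligase for PER proteins, fell against WT (-0.24 ± 0.035, SE, adjusted p = 0.000111), h1 (-0.26) and h2 (-0.22), and Rorb fell against all 3. Npas2, a relative of CLOCK, was lower in h4 than in WT (-0.26 ± 0.077, SE, adjusted p = 0.0496), with overlapping libraries, and that call was lost in 9 of 12 fits that left out 1 library. Of the loop genes, 0 higher and 3 lower were called in h4 against WT (4.55% of all genes called), 0 and 2 in h4 against h1 (4.64%), and 1 and 3 in h4 against h2 (3.22%). None of the 20 was called in h1 against WT or in h2 against WT, where 0.625% and 0.679% of all genes were called.

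**Figure D4:**
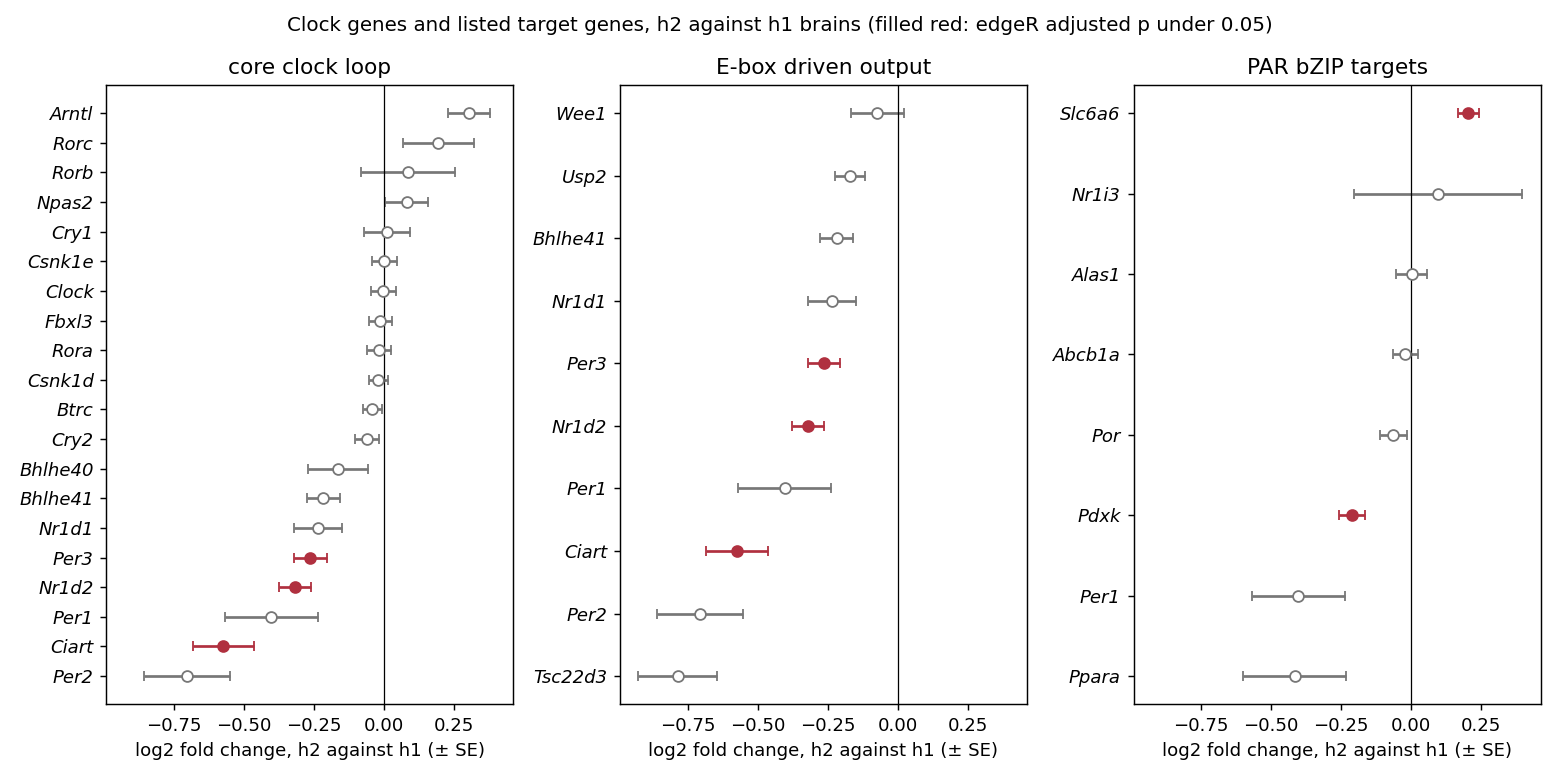
log2 fold change between h2 and h1 brains (horizontal axes, bars are ± SE) of the 20 core loop genes, the 10 genes under E-box control and the 8 listed PAR bZIP targets that were tested. Filled red points passed an edgeR adjusted p of 0.05. All 10 E-box points lie below 0, while the PAR bZIP targets lie on both sides.

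Genes that the PAR factors are known to activate, mostly from work on liver, kidney and brain, were described with a list of 12. Of these, 8 had enough reads to be tested. The others are liver and intestine genes, Cyp2a5, Cyp2b10, Cyp7a1 and Ces2a, of which Cyp2a5 reached 0.333 CPM and Cyp2b10 0.0549 CPM at most, while Cyp7a1 and Ces2a were at 0 in all libraries. In h2 against h1, where 0.722% of all genes were called, 1 of 8 rose, 1 fell and 6 did not pass, with a median of -0.04. The list therefore did not move in 1 direction with Dbp and Tef.

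Pdxk, pyridoxal kinase, was the target that fell. It was at 191.1, 204.4 and 175.7 CPM in the WT brains, 199.8, 210.1 and 191.2 in those of h1, 167.4, 171.9 and 183.1 in those of h2, and 187.4, 184.2 and 186.4 in those of h4. The h2 libraries were below every h1 library and overlapped WT. Its log2 fold change between h2 and h1 was -0.21 ± 0.046 (SE, adjusted p = 0.0269 by edgeR). The call was lost without h1 replicate 1, h1 replicate 2, h2 replicate 1 or h2 replicate 2.

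Slc6a6, the taurine transporter, was the target that rose. It was at 130.1, 123.0 and 124.7 CPM in the WT brains, 117.8, 114.0 and 113.7 in those of h1, 136.4, 135.5 and 129.1 in those of h2, and 122.7, 120.0 and 122.9 in those of h4. Its order over the genotypes was the reverse of that of Dbp, with h1 lowest and h2 highest. The log2 fold change between h2 and h1 was 0.20 ± 0.036 (SE, adjusted p = 0.00401), called in 12 of 12 fits that left out 1 library. On log2(TPM + 0.1) with limma the h2 against h1 calls of Slc6a6, Pdxk, Ciart, Nr1d2 and Per3 were all lost. Slc6a6 was lower in h4 than in h2 (-0.14 ± 0.037, SE, adjusted p = 0.0297), a call lost in 5 of the 12.

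Per1, a period gene that belongs to both lists, was uneven among the h2 mice. Its h2 libraries were at 45.5, 50.7 and 72.0 CPM and its h1 libraries at 82.7, 72.5 and 68.3, with an estimate of -0.40 ± 0.17 (log2, SE, adjusted p = 0.491). Among Por, Alas1, Abcb1a, Nr1i3 and Ppara, genes of drug and lipid metabolism, none was called in any pairwise comparison.

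**Figure D5:**
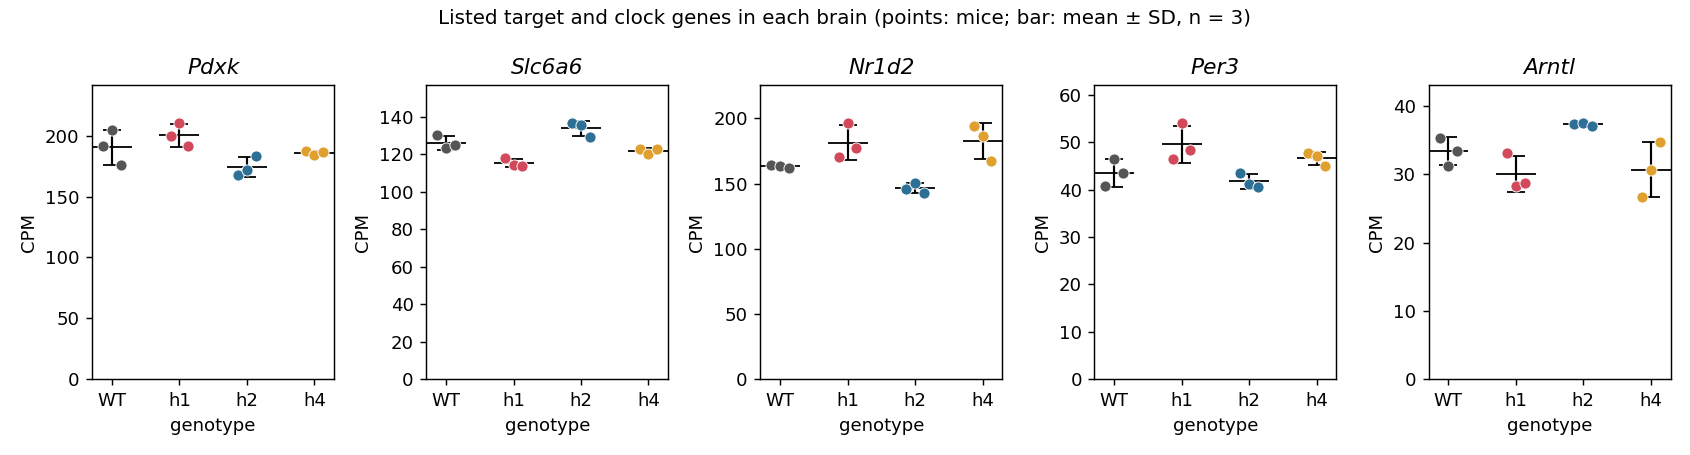
Level of Pdxk, Slc6a6, Nr1d2, Per3 and Arntl in CPM (vertical axes from 0) in each of the 12 brains, by genotype. Points are mice and the bars give the mean ± SD of 3 mice. Between h1 and h2, Pdxk, Nr1d2 and Per3 step down and Slc6a6 and Arntl step up.

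The D-box, the element that the members bind, was searched in the RefSeq windows of the listed genes. Of 27025 genes with a window, 3.99% held it. It was found in 2 of the 14 core loop genes with a window, Per1 and Per3, and in 3 of the 10 PAR bZIP targets with a window, Cyp2a5, Cyp2b10 and Per1. Per3 carried it at 2 positions, beginning 205 and 158 bases before the start, and Per1 at 1, beginning 24 bases before the start. The window of Pdxk held the E-box but not these letters, and 1 of the windows of Arntl held the ROR element. Among the cell type markers it was found in Syt1 and Slc1a2. The sites of the period genes are shown because Per3 is the gene of the clock and target lists called in h2 against h1 that held the D-box, with the motif in capitals, 5′ to 3′ on the strand of the gene (RefSeq, GRCm38.p6).
Per3, chr4:151044852-151044881, minus strand: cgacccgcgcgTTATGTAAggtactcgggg
Per3, chr4:151044805-151044834, minus strand: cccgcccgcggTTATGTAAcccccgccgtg
Per1, chr11:69098914-69098943, plus strand: agggcctggcaTTATGCAAcccgcctccca

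For each member up to 5 of the most similar genes are given, taken by Pearson's r of log2(CPM + 0.5) over the 12 libraries, among 13592 genes of at least 1 CPM on average. This is a description with no test, since some of many genes will follow any pattern over 12 points. Dbp was followed most closely by Fmo2 (r = 0.956), Sdc4 (0.899), Spsb1 (0.888), Map3k6 (0.884) and Per3 (0.882). The mean level of Fmo2, a flavin monooxygenase, was 1.44 CPM in the WT brains, 2.12 in those of h1, 1.05 in those of h2 and 1.60 in those of h4, and that of Map3k6, a stress kinase, was 3.47, 5.16, 2.22 and 3.53.

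Tef was followed by Fam214a (r = 0.96), Tlr7 (0.924), Sdc4 (0.918), Map7 (0.911) and Kcnk6 (0.909). Sdc4, a cell-surface heparan sulfate proteoglycan, was thus on the lists of both Dbp and Tef, with mean levels of 68.1 CPM in the WT brains, 82.8 in those of h1, 58.4 in those of h2 and 70.0 in those of h4. Hlf was followed by Dapk1 (r = 0.937), Ndfip1 (0.916), Adora1 (0.906), Greb1 (0.906) and Rapgef2 (0.904). Adora1, the adenosine A1 receptor of neurons, had mean levels of 225.2 CPM in the WT brains, 236.9 in those of h1, 222.2 in those of h2 and 216.1 in those of h4. Nfil3 was followed by Radil (r = 0.933), Bcorl1 (0.919), Helq (0.908) and Mpzl1 (0.901), and none of these was among the genes named for the other members.

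Estimates of other programmes also differed between these genotypes. Their covariation with the members among brains and their part in the results were not tested. Of 14 genes that respond to glucocorticoid, a hormone that itself cycles and acts on Per1 and Klf9, all 14 had estimates above 0 in h1 against WT with none called (median 0.43), and all 14 had estimates below 0 in h2 against h1, with 1 called, Klf9 (-0.41 ± 0.073, SE, adjusted p = 0.0348). Among all genes, 50.2% were above 0 in h1 against WT and 0.625% were called. In h2 against h1, 49.0% were below 0 and 0.722% were called. The Klf9 call was lost in 7 of 12 fits that left out 1 library. Per1 and Tsc22d3 are also on the list of genes under E-box control, so the 2 lists are not separate. The summed level of the glucocorticoid list was 1320 to 1670 TPM in the WT brains, 1854 to 2297 in those of h1, 1347 to 1462 in those of h2 and 1492 to 1707 in those of h4, so the h1 brains were again the highest. Most of this sum came from Mt1 and Mt2, with means of 646 and 380 TPM in WT and 891 and 585 in h1. Of 14 immediate early genes, which neuronal activity induces, 13 were below 0 in h1 against WT, with Ier5 called (-0.32 ± 0.060, SE, adjusted p = 0.00801). All 14 were above 0 in h2 against h1 with none called (median 0.66). All 14 were also above 0 in h4 against h1, with Npas4 (1.58), Arc (1.58) and Nr4a3 (1.14) called. Of these calls, Npas4 and Arc were each lost in 3 of 12 fits that left out 1 library, and Nr4a3 in 9 of 12 and with Xist as a covariate. Among all genes, 49.8% were below 0 in h1 against WT, 51.0% above 0 in h2 against h1 and 51.6% above 0 in h4 against h1, where 4.64% were called. The genes of each list are not independent of each other, and the lists were chosen with earlier results of these data known. The shares of all genes are therefore no test of them.

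Markers of brain cell types were listed as 8 genes per type. Of all genes, 0.625% were called in h1 against WT, 0.679% in h2 against WT and 4.55% in h4 against WT. Between mutants the shares were 0.722% in h2 against h1, 4.64% in h4 against h1 and 3.22% in h4 against h2. For oligodendrocytes, 6 of 8 were called higher in h1 than in WT (Mobp 0.35, Mbp 0.34, Mal 0.32, Cldn11 0.31, Mog 0.30 and Mag 0.24), 2 lower in h2 than in h1 (Mobp and Mal) and 6 lower in h4 than in h1 (the same 6 genes). Mbp was also called higher in h2 than in WT (0.17). The calls of Mal in h2 against h1, Mal in h4 against h1 and Mbp in h2 against WT were lost with Xist as a covariate, and in 7, 5 and 8 of 12 fits that left out 1 library. Their summed level was 9644 to 10670 TPM in the WT brains, 12130 to 12570 in those of h1, 10320 to 11650 in those of h2 and 10460 to 11310 in those of h4. The h1 brains, highest in Dbp and Tef, were therefore also highest in myelin genes, and how much of 1 difference goes with the other was not tested. For endothelial cells, 2 of 8 were lower in h1 than in WT (Cldn5 -0.57 and Cdh5 -0.34), and Cldn5 was higher in h2 (0.81) and in h4 (0.40) than in h1 and lower in h4 than in h2 (-0.41). With Xist as a covariate all of these calls were lost except that of Cldn5 in h2 against h1. Without 1 library Cdh5 was lost in 4 of 12 fits, and Cldn5 in 1 for h1 against WT, 6 for h4 against h1 and 5 for h4 against h2. The endothelial summed level was 259 to 270 TPM in h1, beside 281 to 288 in WT, 286 to 290 in h2 and 269 to 281 in h4. For astrocytes, 5 of 8 were higher in h4 than in WT (Gfap 0.38, S100b 0.28, Aldh1l1 0.28, Slc1a3 0.15 and Gja1 0.14). Hlf fell in the same comparison. The summed level of the 8 astrocyte markers was 2845 to 2873 TPM in h4 beside 2703 to 2809 in WT. The h1 brains, whose mean Hlf in CPM was the highest, overlapped h4 in this sum (2822 to 2880 TPM). For h2 the range was 2619 to 2821 TPM. In h4 against h1, where Tef and Hlf fell, S100b (0.19) and Slc1a3 (0.19) were higher and Slc1a2 (-0.24) was lower, the last a call lost in 5 of 12 fits that left out 1 library. In h4 against h2, S100b (0.16), Gfap (0.26) and Slc1a3 (0.24) were higher. Of these, Gfap was called in 6 of 12 fits that left out 1 library and S100b in 7 of 12. The Gfap call was also lost with Xist as a covariate and with only the groups compared. The part of the endothelial and astrocyte genes in the results was not tested.

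For neurons, 2 of 8 markers, Syt1 and Slc17a6, were called lower in h4 than in h1 (4.64% of all genes called). Syt1 was also lower in h4 than in h2 (3.22%), and none was called in h2 against h1. Against h1, Syt1 was called in 9 and Slc17a6 in 8 of 12 fits that left out 1 library. Syt1 against h2 was called in 8 of 12, and all these calls were lost on log2(TPM + 0.1) with limma. For the choroid plexus, 1 of 8, Kl, was higher in h2 (0.37) and in h4 (0.25) than in WT, where 0.679% and 4.55% of all genes were called. The Kl call in h4 was lost in 9 of 12 fits that left out 1 library. No microglia marker was called in any pairwise comparison. For the suprachiasmatic nucleus, the site of the master clock, 5 of 8 markers were tested and none was called, and its peptide gene Vip stood at 17.6 ± 1.05 CPM in the WT brains, 19.6 ± 0.274 in those of h1, 17.7 ± 1.70 in those of h2 and 18.4 ± 0.645 in those of h4 (SD, n = 3). The 4 pineal markers were below the read filter, with Aanat at 0.413 CPM at most. Of the 8 tested genes of the C/EBP list, relatives of the members among leucine zipper factors, Atf4 was the one called in a pairwise comparison, lower in h4 than in WT (-0.28 ± 0.045, SE, adjusted p = 0.000314), h1 (-0.18) and h2 (-0.31).

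The h1 and h2 values of Dbp lay apart within each class of Xist level. The h1 brain with high Xist had 55.3 CPM of Dbp and the h1 brains with low Xist 57.6 and 58.4, while the h2 brain with high Xist had 42.2 and the others 42.6 and 43.7. With Xist as a covariate the 5 called differences of members remained called. Those of Dbp and Tef between h2 and h1 were then -0.43 (adjusted p = 0.00695) and -0.22 (adjusted p = 0.006), and those of Tef and Hlf between h4 and h1 were -0.15 (adjusted p = 0.0434) and -0.23 (adjusted p = 0.00595). Both h1 and h2 had high Xist in 1 of 3 brains, so the covariate could change h2 against h1 little. Within high Xist, 1 brain stood against 1, and the part of sex was not tested.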

How the data were processed

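Whole brains of 12 mice were compared, 3 per genotype, and the members and gene lists were chosen with earlier results of these data known. Bowtie2 2.2.0 and RSEM 1.2.12 are named in the submitters' processing notes, and the build and annotation were not given in the sources used here. Per the labels' protocols, libraries were made with a TruSeq kit that does not mark strand and read as 100 bp paired ends. The authors deposited RSEM's expected counts per gene, which share reads among matching genes, so 35 of 48 values of the members were whole to 2 decimals. The deposited TPM values, which the authors' RSEM run divided by effective length, gave levels between genes and 1 alternative test, and the authors' deposited FPKM values, also per length, were not used in a test.

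Expected counts were rounded, and edgeR 4.0.16 (R 4.3.3) fitted its quasi-likelihood model in 1 robust fit over 12 libraries, with TMM scaling and the low-count filter of edgeR, which left 16493 genes. The 7 comparisons set each mutant against WT, the mutants against each other, and their mean against WT. A call is a Benjamini-Hochberg adjusted p under 0.05 over all genes tested, and adjusted p of genes are from edgeR unless another tool is named. SE was taken from the fold change and its F, and 95% intervals from a t distribution with 8 degrees of freedom. Libraries of 1 genotype differed by more than sampling noise (chi-square per degree of freedom 2.37 to 4.47). The p-values measure the spread between separate mice. Alternatives were RLE factors, DESeq2 1.42.0, no filter, only the groups compared, limma 3.58.1 on log2(TPM + 0.1), an Xist covariate, a replicate block and leaving out each library. Symbols came from GENCODE M21, which held 37607 of the 38924 identifiers. The steps were tested on simulated counts. From each list the genes called were named, up to 6 per pairwise comparison, and where none was called up to 3 of the highest level. Genes named beyond that rule (Per1, Per2, Vip, Aanat, uncalled targets) were chosen after their values were seen. For each member the 5 genes of highest correlation were taken, and 1 of them is not reported here.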

Additional observations from a re-analysis of the deposited data

Results flagged for a closer look

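For 4 results the effects of 2 mutants against WT differed by the direct test of one mutant against the other, on edgeR's adjusted p over all genes. Dbp differed between h2 and h1 by -0.4274 (log2, lower in h2 in 3 of 3 brains, adjusted p = 0.00401), with estimates on opposite sides of WT, neither of them called against WT. Tef differed between h2 and h1 by -0.2189 (3 of 3 brains lower, adjusted p = 0.0083) and between h4 and h1 by -0.1585 (3 of 3 brains lower, adjusted p = 0.0293). Hlf differed between h4 and h1 by -0.2524 (3 of 3 brains lower, adjusted p = 0.00436). Allele and background differ between these groups, and sex composition differs between h4 and h1. Their parts cannot be told apart beyond the Xist covariate given above.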

How the results depend on the processing

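Directions of the 5 called member differences held under every alternative, and 8 to 12 of 12 fits without 1 library kept each call. On log2(TPM + 0.1) with limma all 5 were lost: Dbp -0.3932 and Tef -0.2179 for h2 against h1, Tef -0.1369 and Hlf -0.3037 for h4 against h1, and Hlf -0.3545 for h4 against WT. The same scale turned estimates near 0: Dbp -0.008134 and Nfil3 -0.006426 for h4 against WT, Hlf -0.05085 for h1 against WT, Nfil3 -0.03479 for h2 against WT, and Tef -0.01366 for the mean of mutants. The cause was not tested. Uncalled differences that passed were, with DESeq2, Dbp 0.278 and Tef 0.1526 for h1 against WT and Dbp 0.2387 for h4 against h2. With no filter they were Dbp 0.2799 and Tef 0.1544 for h1 against WT, Dbp -0.198 for h4 against h1, Dbp 0.2286 for h4 against h2 and Hlf -0.1613 for h2 against h1. With only the groups compared it was Dbp 0.2797 for h1 against WT.

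Without 1 library, Dbp ranged from 0.2419 to 0.3474 (h1 against WT), -0.001592 to 0.1747 (h4 against WT), -0.2766 to -0.1003 (h4 against h1) and 0.15 to 0.3263 (h4 against h2). Tef ranged from -0.2498 to -0.1675 (h2 against h1), -0.03544 to 0.0292 (h4 against WT) and -0.1907 to -0.1083 (h4 against h1), and Hlf from -0.2269 to -0.1478 (h4 against WT). Nfil3 ranged from -0.09844 to 0.07261 (h2 against WT), -0.07891 to 0.08883 (h4 against WT) and -0.08024 to 0.1242 (h4 against h2). Correlations ranged from 0.244 to 0.645 (Dbp and Hlf), -0.724 to -0.492 (Dbp and Nfil3), -0.818 to -0.605 (Hlf and Nfil3), 0.444 to 0.792 (Tef and Hlf) and -0.889 to -0.656 (Tef and Nfil3). In log2(TPM + 0.1) their permutation tests gave r of -0.641 (Dbp and Nfil3, adjusted p = 0.0572), -0.38 (Hlf and Nfil3, 0.223), 0.627 (Tef and Hlf, 0.0572) and -0.56 (Tef and Nfil3, 0.0819).

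Genes called numbered 0 with limma in h1 against WT (1355 at an unadjusted p under 0.05, and 103 by edgeR), 10 in h2 against WT, 4 in h2 against h1, 152 in h4 against WT, 106 in h4 against h1, 117 in h4 against h2 and 8 for the mean of mutants. With no filter they were 236 in h1 against WT, 288 in h2 against WT, 290 in h2 against h1, 844 in h4 against h2 and 373 for the mean. With the Xist covariate they were 31, 69 and 65 in h1 against WT, h2 against WT and the mean, and in h2 against h1 183 with DESeq2 and 193 with only those groups. Without 1 library they ranged from 22 to 166 (h1 against WT), 18 to 348 (h2 against WT), 44 to 160 (h2 against h1), 230 to 1111 (h4 against WT), 313 to 896 (h4 against h1), 251 to 619 (h4 against h2) and 18 to 505 (mean).

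The h1 and h2 titles share replicate numbers. Same-numbered deviations correlated at -0.181, -0.141 and 0.0408, and differently numbered ones at -0.204 to 0.298. These values show no pairing of the mice by number, but with 3 mice per group they cannot exclude it. With the replicate block in h2 against h1, 204 genes were called, Dbp was -0.4273 and Tef -0.2173, both still called. At 129 to 272 counts per library, Nfil3 is the member whose differences the depth limits most.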
